A study of Danio rerio with 9 samples.

Results

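Of the 32055 genes counted in zebrafish embryos that lacked MondoA and in wild-type embryos, 46 were nearly lost from every mutant library. Levels are given in CPM, the counts of a gene per 1000000 counts of its library. The genes were selected on these values: one was taken when its lowest CPM among the wild-type libraries was at least 1 and its highest CPM among the 6 mutant libraries was at most 25% of that lowest wild-type value. Of 12952 genes that reached the wild-type level, 49 (0.378%) met both conditions. A pair of *txnip* identifiers (ENSDARG00000036107 and ENSDARG00000070000) and *znfl1h* (ENSDARG00000077877) were left out by name, and 46 remained. The difference from wild-type chose these genes, so it is given as a description and without a test. The genes were gathered with the question whether they are targets of MondoA or differ because of other alleles of the mutant line.

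RNA sequencing had been applied to whole embryos in 3 groups of 3 libraries each. All 6 mutant libraries came from maternal-zygotic mutants (MZ*mondoa*) homozygous for the allele ka405, a small frameshift deletion in an early exon made with CRISPR/Cas9. They were divided by eye into embryos with unaffected epiboly, in which the blastoderm spreads normally over the yolk, and embryos with affected epiboly, and the third group was wild-type with unaffected epiboly. The stage label of 5 hpf (hours post fertilization) is shared by all groups, whereas the methods of the study place the sampling late in epiboly. Each library was made from a pool of embryos, and the labels name no treatment. The study obtained maternal-zygotic mutants by crossing homozygous mutant fish with each other. The parents of single pools, the parentage of the wild-type pools and any batch are not given. Both mutant groups carry 1 allele, and the study describes wild-type fish as descendants of the AB or the golden strain without saying which of them, or whether relatives of the mutants, were used here. The ka405 deletion and any other allele that the mutant line carries therefore cannot be told apart as the origin of a difference from wild-type.

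MondoA is a basic helix-loop-helix leucine zipper protein that acts as a pair with Mlx. The pair is held outside the nucleus until phosphorylated sugars, formed when glucose enters a cell, release it. It then binds carbohydrate response elements, which consist of E-boxes in tandem, and switches on genes of sugar and lipid metabolism. *txnip*, an arrestin-domain gene that limits glucose uptake, is its best known target. A line bred from the carriers of an edited allele also inherits the other variants of its founders, most firmly those that lie close to the edited gene.

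As a check of the labels, the mutated gene *mlxip* (*mondoa*, ENSDARG00000059474) was read in each library. It had 115.4, 113.5 and 51.9 CPM in wild-type libraries 1 to 3, 21.2, 20.6 and 13.3 CPM in the unaffected and 14.7, 15.5 and 12.6 CPM in the affected libraries. The mutant libraries were all below the wild-type ones, and among the wild-type libraries number 3 was well below the others. The deletion is small and leaves most of the gene countable, so these values are levels of the mutant transcript. Library totals ran from 27567897 to 39299268 counts, at which 3 counts, the limit that a count of 0 allows, equal 0.0763 to 0.109 CPM and cover counting error only. Of all genes, 16962 passed the filter for testing, and all 46 lost genes were among them. The filter asks for enough counts in only 3 libraries, so the wild-type libraries alone could carry a lost gene through it. Being tested therefore does not mean that the mutant libraries held enough counts to compare the mutant groups. Replicates are separate samples by their labels, yet nothing says that the pools came from separate crosses, so p-values measure the spread between these pools only.

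Together the 46 genes made up 496.8, 520.4 and 448.6 CPM in the wild-type libraries. Their sum was 33.6, 29.7 and 31.9 CPM in the unaffected and 32.6, 34.1 and 34.06 CPM in the affected libraries. *ckb* and si:dkey-14o18.2 supplied much of the wild-type sum, and without them it was 329.06, 319.3 and 280.6 CPM in wild-type, 17.4 to 19.4 CPM in the unaffected and 16.2 to 19.6 CPM in the affected libraries. The rule had capped each gene in all 6 mutant libraries, so low sums in both mutant groups were fixed by it. Nothing is read from how alike these sums are. Relative to the wild-type mean, the members retained a median of 6.51% in unaffected embryos (range 0.348% to 17.4%) and of 6.45% in affected embryos (range 0% to 15.02%). In 36 of the 46 the highest mutant library was below 1 CPM, which the rule itself fixed for genes with a low wild-type level. At most 10% of the wild-type mean was left in both mutant groups for 30 genes, at most 5% for 12, at most 2% for 8 and at most 1% for 4. In bulk RNA, fewer cells that express a gene and less of its RNA per cell cannot be told apart.

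**Figure D1:**
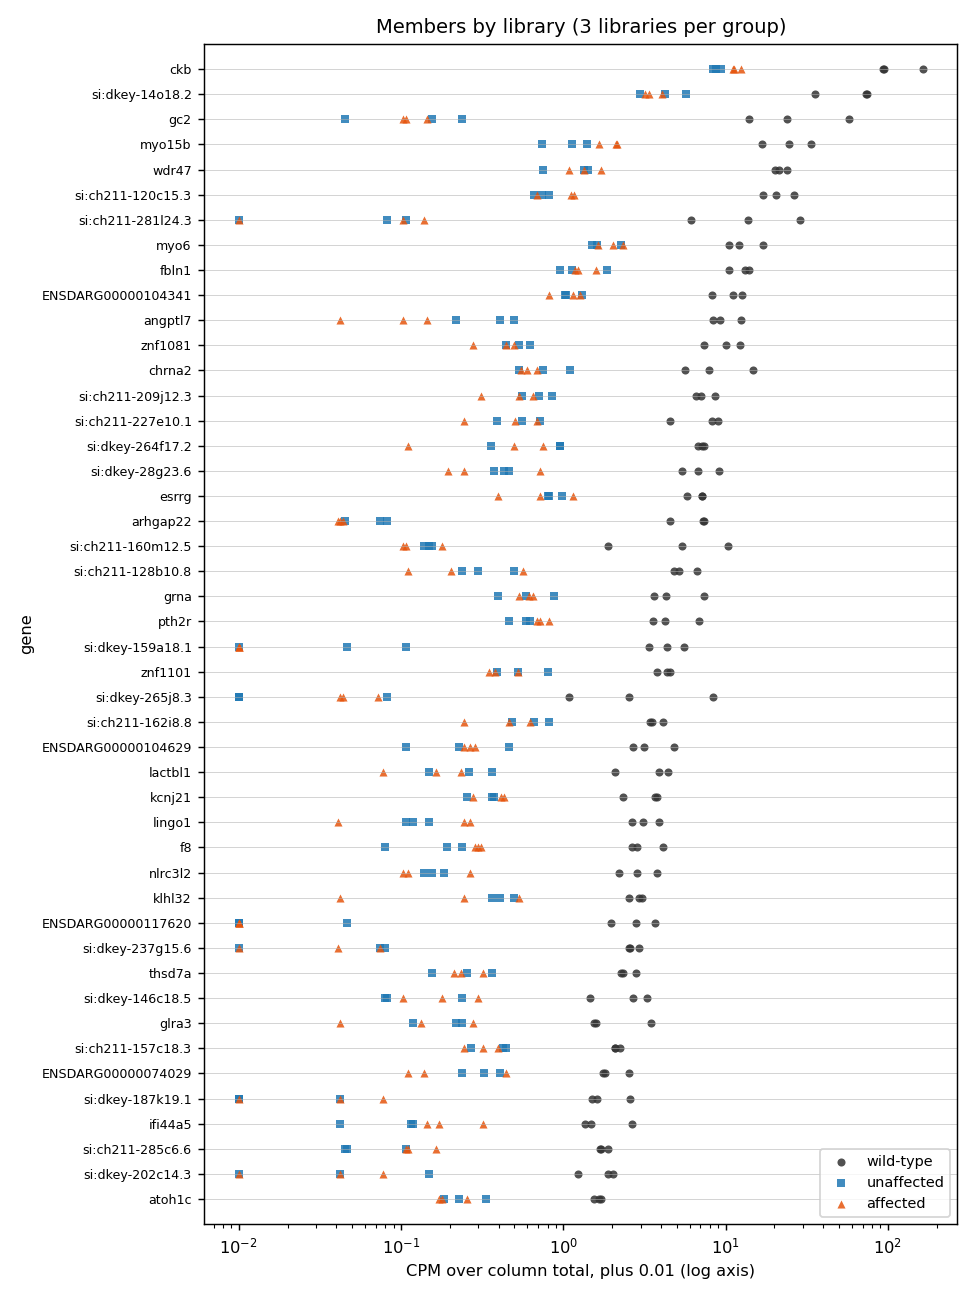
CPM of each of the 46 genes in the 9 libraries, on a log axis after 0.01 was added so that counts of 0 can be drawn. Genes are ordered by their wild-type mean, points are single libraries, and the mutant libraries of both groups lie together to the left of the wild-type libraries, as the rule requires.

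In the model fitted across all genes, the log2 fold changes of the 46 from wild-type to unaffected embryos had a median of -3.93 (range -8.05 to -2.51), and those to affected embryos a median of -3.87 (range -10.10 to -2.66). All 46 were past the threshold as lower in both comparisons. Of all tested genes, 9.60% passed in unaffected embryos (4.95% as lower), 30.3% in affected embryos (15.0% as lower), and 4.46% as lower in both. Since the rule had used these same values, nothing is read from that count. Genes at the edge of the rule were si:ch211-162i8.8 (23.4%), *grna* (24.1%) and ENSDARG00000074029 (24.6%) just inside and *mtmr11* (25.1%), ENSDARG00000096988 (25.3%) and *pcbp4* (25.8%) just outside, each given as the highest mutant over the lowest wild-type CPM. Those that are not otherwise described are named only for their place at this edge.

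Enzymes and a cofactor of the clotting cascade are described first. *ckb* (ENSDARG00000069752), a brain-type creatine kinase that moves phosphate between ATP and creatine, had 93.5, 165.4 and 94.5 CPM in the wild-type libraries, 8.78, 9.31 and 8.32 CPM in the unaffected and 12.4, 11.1 and 11.3 CPM in the affected libraries. The mutant means were 13.4-fold and 10.2-fold below wild-type, and the affected libraries all lay above the unaffected ones. *gc2* (ENSDARG00000018329), a membrane guanylyl cyclase that makes cyclic GMP and is known from photoreceptors, had 14.02, 57.9 and 24.0 CPM in wild-type, 0.145, 0.0349 and 0.227 CPM in the unaffected and 0.135, 0.0968 and 0.0925 CPM in the affected libraries. Its wild-type values differed 4.13-fold among themselves, whereas no mutant library held more than 7 of its counts, so that the group means were 236-fold and 296-fold apart. *lactbl1* (ENSDARG00000070467), which encodes a protein of the beta-lactamase fold, had 3.90, 2.08 and 4.402 CPM in wild-type, 0.254, 0.139 and 0.356 CPM in the unaffected and 0.0674, 0.226 and 0.154 CPM in the affected libraries. The mutant groups overlapped in this gene. *f8* (ENSDARG00000101385), the blood coagulation cofactor VIII, had 2.66, 2.84 and 4.10 CPM in wild-type, 0.181, 0.0697 and 0.227 CPM in the unaffected and 0.304, 0.290 and 0.278 CPM in the affected libraries. The mutant groups did not overlap here, from 2 to 9 counts per mutant library, and their difference did not pass (edgeR adjusted p = 0.320).

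Motor proteins and regulators of the cytoskeleton formed a further group. *myo15b* (ENSDARG00000074852), an unconventional myosin, had 33.5, 24.5 and 16.7 CPM in wild-type, 1.12, 0.732 and 1.39 CPM in the unaffected and 2.12, 1.65 and 2.10 CPM in the affected libraries. Its mean was 23.006-fold lower in unaffected and 12.7-fold lower in affected embryos, and all affected libraries exceeded all unaffected ones. *myo6* (ENSDARG00000042141), the myosin that walks towards the minus end of actin filaments, had 17.02, 10.5 and 12.04 CPM in wild-type, 2.25, 1.60 and 1.49 CPM in the unaffected and 1.62, 2.32 and 2.005 CPM in the affected libraries. At 13.5% and 15.02% of the wild-type mean it was among the genes with most transcript left. *wdr47* (ENSDARG00000099757), a WD-repeat protein linked to microtubules, had 24.06, 20.05 and 21.3 CPM in wild-type, 1.41, 1.32 and 0.744 CPM in the unaffected and 1.08, 1.71 and 1.33 CPM in the affected libraries. Its wild-type libraries agreed closely (21.8 ± 2.05 CPM, SD, n = 3), and the mutant means were 18.8-fold and 15.9-fold below them. *arhgap22* (ENSDARG00000076434), an activator of GTP hydrolysis by Rac, had 7.26, 7.36 and 4.53 CPM in wild-type and 1 or 2 counts in each of the 6 mutant libraries. The unaffected mean was 111-fold below wild-type. The 3 counts of the affected libraries were summed and set against the summed wild-type counts per library total. They gave a ratio of 194.4, with a counting interval (95%) from 66.2 to 945.3 that leaves out the spread between libraries.

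Several of the lost genes encode secreted or matrix proteins. *fbln1* (ENSDARG00000103311), the matrix glycoprotein fibulin 1, had 10.5, 13.1 and 13.9 CPM in wild-type, 1.12, 0.941 and 1.84 CPM in the unaffected and 1.58, 1.23 and 1.17 CPM in the affected libraries. It kept 10.4% and 10.6% of the wild-type mean. *angptl7* (ENSDARG00000027582), a secreted angiopoietin-like protein, had 9.22, 8.35 and 12.4 CPM in wild-type, 0.399, 0.209 and 0.485 CPM in the unaffected and 0.135, 0.0323 and 0.0925 CPM in the affected libraries. Its wild-type mean exceeded the unaffected mean 27.4-fold and the affected mean 115.6-fold, and the mutant groups did not overlap. *grna* (ENSDARG00000004954), a granulin precursor, had 4.29, 7.33 and 3.61 CPM in wild-type, 0.580, 0.871 and 0.388 CPM in the unaffected and 0.607, 0.645 and 0.524 CPM in the affected libraries.

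Receptors and channels, most of them known from nerve cells, were also in the set. *chrna2* (ENSDARG00000006602), a subunit of nicotinic acetylcholine receptors, had 14.8, 7.91 and 5.62 CPM in wild-type, 1.09, 0.523 and 0.744 CPM in the unaffected and 0.540, 0.677 and 0.586 CPM in the affected libraries. Its wild-type values ranged 2.62-fold, with library 1 the highest. *pth2r* (ENSDARG00000006678), a G protein-coupled receptor of parathyroid hormone family peptides, had 3.55, 6.89 and 4.25 CPM in wild-type, 0.580, 0.453 and 0.615 CPM in the unaffected and 0.708, 0.677 and 0.802 CPM in the affected libraries. *glra3* (ENSDARG00000011066), a glycine receptor subunit, had 1.54, 3.49 and 1.58 CPM in wild-type, 0.109, 0.209 and 0.227 CPM in the unaffected and 0.270, 0.0323 and 0.123 CPM in the affected libraries. Its means were 12.1-fold and 15.5-fold below wild-type, from no more than 8 counts in any mutant library. *kcnj21* (ENSDARG00000060259), an inward-rectifier potassium channel, kept 9.88% and 11.2% of its wild-type mean of 3.25 CPM. *lingo1* (ENSDARG00000034165), a membrane protein with leucine-rich repeats, kept 3.59% and 5.46% of a wild-type mean of 3.21 CPM.

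The set also held transcription factors. *esrrg* (ENSDARG00000004861), an orphan nuclear receptor that controls genes of oxidative metabolism, had 7.10, 5.80 and 7.15 CPM in wild-type, 0.798, 0.976 and 0.809 CPM in the unaffected and 0.708, 0.387 and 1.14 CPM in the affected libraries. It kept 12.9% and 11.2% of the wild-type mean. *atoh1c* (ENSDARG00000039602), a proneural basic helix-loop-helix factor, had the lowest wild-type mean of the set (1.62 CPM). It had 1.70, 1.64 and 1.53 CPM in wild-type, 0.218, 0.174 and 0.324 CPM in the unaffected and 0.169, 0.161 and 0.247 CPM in the affected libraries. The zinc finger genes *znf1081* (ENSDARG00000104561) and *znf1101* (ENSDARG00000112878) belong to a large family of near copies, among which counted read pairs may be split. *znf1081* had 12.3, 9.995 and 7.33 CPM in wild-type, 0.435, 0.523 and 0.615 CPM in the unaffected and 0.270, 0.484 and 0.432 CPM in the affected libraries. *znf1101* kept 13.5% and 9.70% of a wild-type mean of 4.21 CPM.

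Other genes of the set bear clone-based names only, and what they do is not given by the annotation used. si:dkey-14o18.2 (ENSDARG00000062995) had 74.2, 35.7 and 73.5 CPM in wild-type, 5.66, 2.96 and 4.21 CPM in the unaffected and 4.05, 3.35 and 3.18 CPM in the affected libraries. In every library its count was 94.5% to 100.4% of that of *znfl1h*, a gene left out by name, so reads of these rows cannot be told apart and si:dkey-14o18.2 may not be a separate gene in these counts. Among the members abundant enough in wild-type for this check, it was the only one with such a near-identical row. si:ch211-120c15.3 (ENSDARG00000101807) had 26.6, 20.5 and 17.1 CPM in wild-type, 0.653, 0.732 and 0.809 CPM in the unaffected and 1.11, 1.16 and 0.679 CPM in the affected libraries. Of its wild-type mean, 3.42% and 4.60% were left. The corresponding shares were 9.33% and 6.60% for si:ch211-209j12.3, 7.52% and 6.45% for a clone-named gene (ENSDARG00000104968), 10.5% and 6.22% for si:dkey-264f17.2 and 5.82% and 5.32% for si:dkey-28g23.6. They were 2.36% and 2.04% for si:ch211-160m12.5, 6.03% and 5.10% for si:ch211-128b10.8 and 17.3% and 11.8% for si:ch211-162i8.8.

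A few genes were absent or almost absent from the mutants. 6 of the 46 had at most 3 counts in every mutant library, and 7 had a count of 0 in at least 1 of them. si:ch211-281l24.3 (ENSDARG00000068637) had 13.8, 6.10 and 28.9 CPM in wild-type, against 2, 0 and 3 counts in the unaffected and 0, 4 and 3 counts in the affected libraries. Its means were 288-fold and 220.2-fold below wild-type, though the wild-type libraries themselves ranged 4.75-fold. si:dkey-159a18.1 (ENSDARG00000056145) had 5.54, 3.37 and 4.38 CPM in wild-type, 1, 0 and 3 counts in the unaffected and no count in any affected library. Its mean was 99.6-fold lower in the unaffected embryos. It was at least 136-fold lower in the affected embryos, from counts summed over each group and 3 counts as the floor of the affected group. ENSDARG00000117620, named because it too had no count in the affected libraries, had 3.65, 1.96 and 2.80 CPM in wild-type and 1 count in all mutant libraries together. It was at least 86.3-fold lower in affected embryos by the same bound. si:dkey-265j8.3 (ENSDARG00000097108) had 2.53, 8.32 and 1.07 CPM in wild-type, 2, 0 and 0 counts in the unaffected and 1, 1 and 2 counts in the affected libraries. Its 2 unaffected counts gave a ratio of summed counts of 168.6 with a counting interval from 46.4 to 1397.1. That interval leaves out the spread between libraries, and the wild-type values of this gene ranged 7.79-fold, with library 2 the highest. No gene had a count of 0 in all unaffected libraries.

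Affected and unaffected mutants were compared next. The rule had capped the lost genes in all 6 mutant libraries, so a gene high in either group could not be in the set, and these counts are no independent measure of how alike the groups are. None of the 46 passed (edgeR quasi-likelihood test, adjusted p under 0.05 over all tested genes), where 2.99% of all genes did (507 genes, 1.88% as higher and 1.11% as lower). DESeq2 called 2 of them, beside 1205 of all genes. The fit with the replicate number as a block called 1, beside 1399 of all genes. At an unadjusted p under 0.05, 3 of the 46 (6.52%) differed, and 18.19% of all genes; with the cap and the few counts left, nothing is read from the lower share. Of the 46, 20 were higher and 26 lower in affected embryos by sign alone, and their median log2 fold change was -0.16 beside -0.01 for all genes. These genes are weakly expressed in the mutants, and the depth limits what can be seen: their median standard error was 0.50 on the log2 scale against 0.19 for all genes, and their median absolute log2 fold change 0.42 against 0.20. A modest difference between the mutant groups was therefore not detectable for most of them.

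The gene nearest to a call was *angptl7*, at -1.99 on the log2 scale (SE 0.51; adjusted p = 0.0688 in edgeR) from 6 to 15 counts per unaffected and 1 to 4 counts per affected library. With the replicate number as a block, which pairs same-numbered libraries, its adjusted p in edgeR was 0.0251, with DESeq2 it was 0.0198, and without unaffected replicate 2 it was 0.0450. *myo15b* was higher in affected embryos by 0.90 (SE 0.30, edgeR adjusted p = 0.143) and passed with DESeq2 alone (adjusted p = 0.0489). For *ckb* the difference was 0.45 (SE 0.21, edgeR adjusted p = 0.30), and it passed only without wild-type replicate 2 (edgeR adjusted p = 0.0465), which enters this contrast through the shared estimate of spread. The third gene with an unadjusted p under 0.05 was si:dkey-159a18.1, at -3.64 (SE 1.54, edgeR adjusted p = 0.261), from 4 counts in all.

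**Figure D2:**
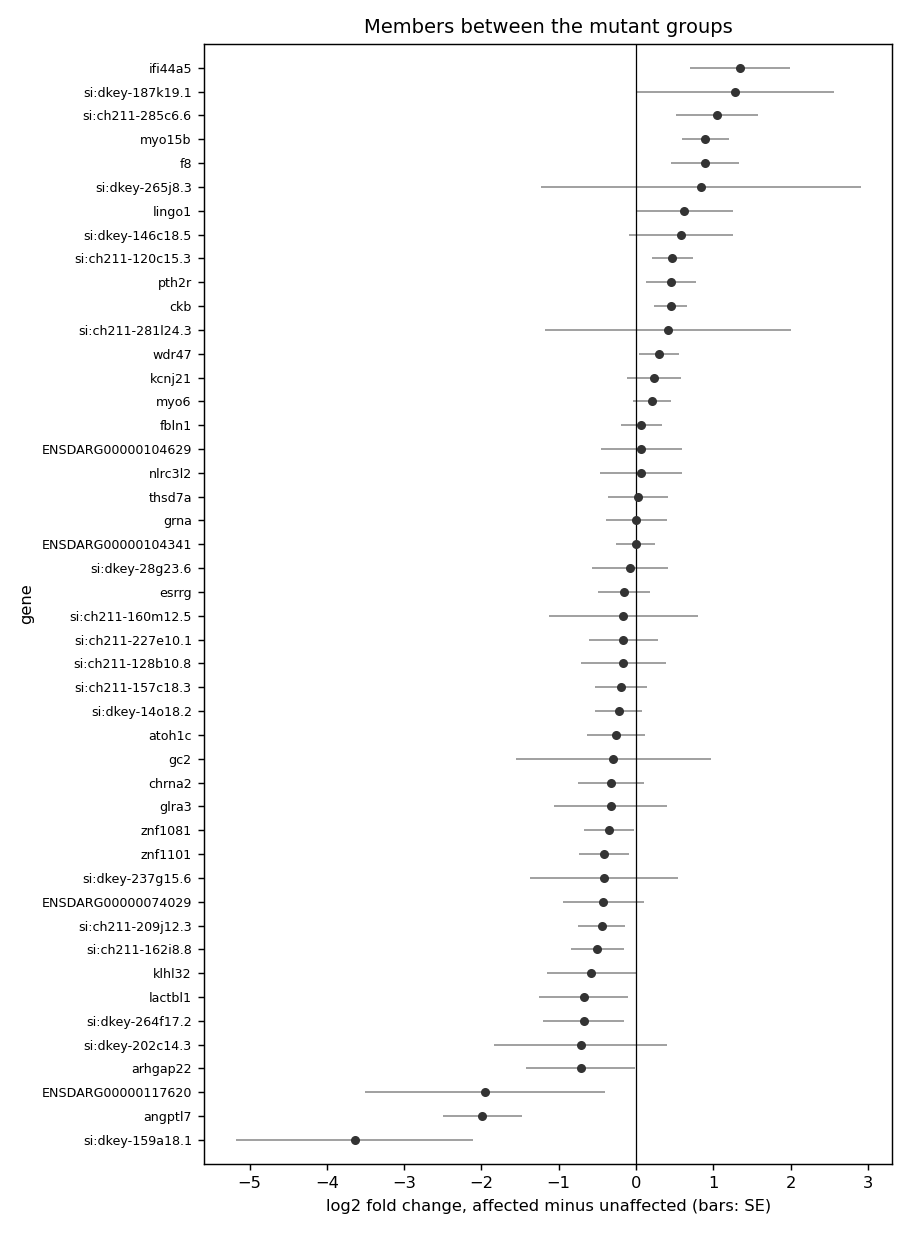
Log2 fold change of affected against unaffected embryos for each of the 46 genes, with bars of 1 standard error from the edgeR fit. No gene passed an adjusted p of 0.05, and the widest bars belong to genes with few counts in any mutant library, such as si:dkey-265j8.3.

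Markers of cell types that an embryo pool could hold in varying share were set beside the lost genes. Only 0.378% of the genes that reached the wild-type level met the rule. Nothing is therefore read from the fact that none of 84 marker identifiers belonged to the set. Of 75 tested, 2 were higher and 1 lower in unaffected against wild-type embryos, and 25 were higher and 19 lower in affected against wild-type embryos (edgeR). These are 4% and 58.7% of the markers, beside 9.60% and 30.3% of all genes. The summed markers of the enveloping layer, the outer epithelium of the embryo, were 13062 to 16732 CPM in wild-type, 14920 to 17433 CPM in unaffected and 10714 to 12161 CPM in affected libraries. Those of the yolk syncytial layer were 3472 to 3603, 2974 to 3563 and 3885 to 4591 CPM. Abundant genes weigh most in such sums, as *krt4* did with a wild-type mean of 4612 CPM. In affected embryos, 3 of 15 tested enveloping layer markers were higher than wild-type and 6 lower (edgeR). Of 11 tested yolk syncytial layer markers, 7 were higher and 0 lower, beside 15.4% and 15.0% of all genes. The markers of blood and macrophages summed to 0.293 to 0.560 CPM in wild-type, 0.939 to 1.36 CPM in unaffected and 1.08 to 1.84 CPM in affected libraries. The only one of them tested, *coro1a*, a coronin of leukocytes that is named after its values were seen, was higher in both mutant groups (1.78 and 2.22 on the log2 scale; adjusted p = 0.0145 and 0.00172 in edgeR). It made up most of these sums, with means of 0.290, 1.01 and 1.32 CPM in wild-type, unaffected and affected embryos. No other blood or macrophage marker averaged above 0.0927 CPM in any group, so the higher sums are those of *coro1a*. The part of cell type shares in the levels of the lost genes was not tested.

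How far the wild-type pools differed from each other was described for the lost genes, without a test. The highest over the lowest wild-type CPM had a median of 1.63 in the 46 genes and of 1.27 in all 12952 genes that reached the wild-type level. A ratio of at least 2 was seen in 11 of the 46 (23.9%), against 6.37% of those 12952 genes. Split by level, it was 4 of the 11 lost genes with a wild-type mean of 10 CPM or more, against 3.83% of the genes at that level. Of these 4, si:dkey-14o18.2 (2.08-fold) and *myo15b* (2.004-fold) were only just past a ratio of 2. From 3 to under 10 CPM it was 5 of 21 against 10.7%, and from 1 to under 3 CPM 2 of 14 against 10.1%. The widest spreads were those of si:dkey-265j8.3 (7.79-fold), si:ch211-160m12.5 (5.49-fold), si:ch211-281l24.3 (4.75-fold) and *gc2* (4.13-fold). They did not run in parallel, since si:dkey-265j8.3 and *gc2* were highest in wild-type library 2, si:ch211-160m12.5 in library 1 and si:ch211-281l24.3 in library 3. Over the set, 25 genes (54.3%) were highest in wild-type library 1, 12 (26.1%) in library 2 and 9 (19.6%) in library 3. The shares of the 12952 genes were 37.7%, 28.5% and 33.9% in the same order. Since the rule compares mutants with the lowest wild-type library, leaving out a wild-type library can only keep or add genes. Without wild-type replicate 1, 62 genes met the rule, without replicate 2, 72, and without replicate 3, 54. The original 46 had to be among them. The labels give no genotype or parentage for single wild-type pools.

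**Figure D3:**
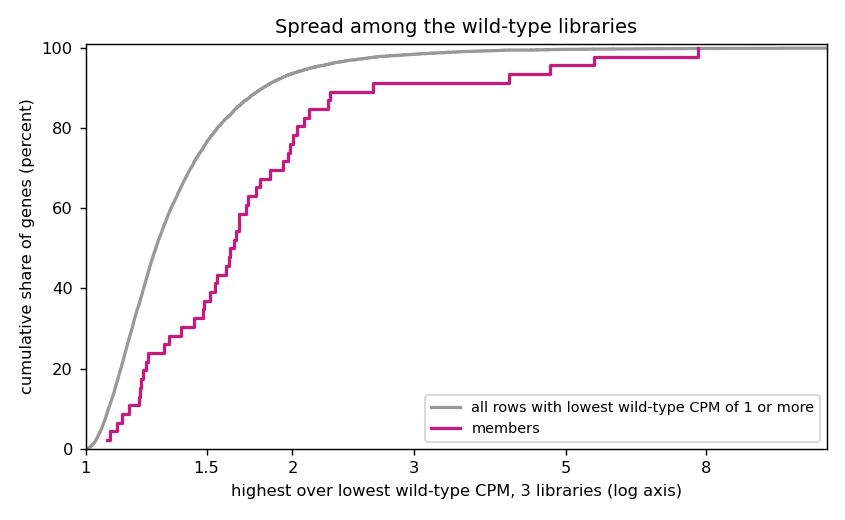
Cumulative share of genes (percent) by the ratio of the highest to the lowest of the 3 wild-type CPM values, on a log axis, for the 46 lost genes and for all 12952 genes with a lowest wild-type CPM of 1 or more. The curve of the lost genes lies to the right, with a median of 1.63 against 1.27.

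The names of the genes were counted as well. The rule had used names only to leave out the *txnip* identifiers and *znfl1h*, which all have established symbols. The 12952 genes still include them. A clone-based symbol, written with a colon and given to loci without an established name, was carried by 18 of the 46 (39.1%) and by 9.77% of the 12952 genes. A further 4 had no symbol at all (8.70% against 3.05%). The lost genes were also less abundant, with a median wild-type mean of 4.66 CPM against 16.7 CPM for the 12952 genes. At like level, clone-based symbols were carried by 6 of 14 against 15.8% at 1 to under 3 CPM, 9 of 21 against 12.3% at 3 to under 10 CPM and 3 of 11 against 7.44% at 10 CPM or more. The set further held *nlrc3l2* (ENSDARG00000089304) and *ifi44a5* (ENSDARG00000092361), named here after their values were seen because they too belong to large families of immune genes with near copies, the NLR and the interferon-induced genes. *nlrc3l2* kept 5.10% and 5.13% of its wild-type mean, and *ifi44a5* 4.50% and 11.1%. Read pairs that fit several copies of such a family were lost at counting, so the values of these genes are uncertain.

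Many zebrafish genes exist as a pair of copies, and the other copy of 11 lost genes was looked up by symbol. The other identifier named *ckb* (ENSDARG00000043257) had 84.7, 83.8 and 103.7 CPM in wild-type, 108.3, 166.8 and 109.2 CPM in the unaffected and 131.9, 163.0 and 146.6 CPM in the affected libraries. It was higher than wild-type by 0.76 in affected embryos (SE 0.18, edgeR adjusted p = 0.0111) and by 0.51 in unaffected embryos, which did not pass (SE 0.18, edgeR adjusted p = 0.108). The sum of both *ckb* identifiers was 209 ± 36.5 CPM in wild-type, 137 ± 34.0 in unaffected and 159 ± 14.9 CPM in affected embryos (SD, n = 3). *grnb* (ENSDARG00000025081), the partner of *grna*, fell with it. It had 118.3, 196.2 and 193.5 CPM in wild-type, 65.6, 62.8 and 61.8 CPM in the unaffected and 82.5, 72.2 and 80.7 CPM in the affected libraries. On the log2 scale it was -1.41 in unaffected embryos (SE 0.18; adjusted p = 0.00101 in edgeR) and -1.06 in affected embryos (SE 0.18; adjusted p = 0.00190), and both calls held under all 16 alternative settings.

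The further identifier of *myo6* (ENSDARG00000044016) went from 27.6 ± 4.26 CPM in wild-type to 19.8 ± 2.53 CPM in unaffected and 19.7 ± 1.77 CPM in affected embryos (SD, n = 3), or -0.47 and -0.42 on the log2 scale (adjusted p = 0.0597 and 0.0409 in edgeR). The unaffected value passed with the replicate block (adjusted p = 0.00779), with DESeq2 (0.0358) and without wild-type replicate 3 (0.0269), and the affected call held in 9 of 16 alternatives. For *wdr47*, the other identifier (ENSDARG00000078136) had 3.43 ± 1.34, 4.09 ± 0.36 and 4.04 ± 0.77 CPM in the same order, and no difference passed (edgeR adjusted p = 0.592 and 0.432). *esrrgb*, partner of *esrrg*, and the other identifier of *thsd7a* (lost gene ENSDARG00000090496, named because its partner is shown) were below 0.5 CPM in each library and passed in neither comparison. The partners of *chrna2*, *arhgap22*, *pth2r*, *lactbl1* and *lingo1* held 11 counts or fewer per library, too few for a test. Among the 6 partners tested, the *ckb* identifier alone was called higher, and only in affected embryos, where 15.4% of all genes were called higher (edgeR). With so few partners, nothing is read from that count.

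**Figure D4:**
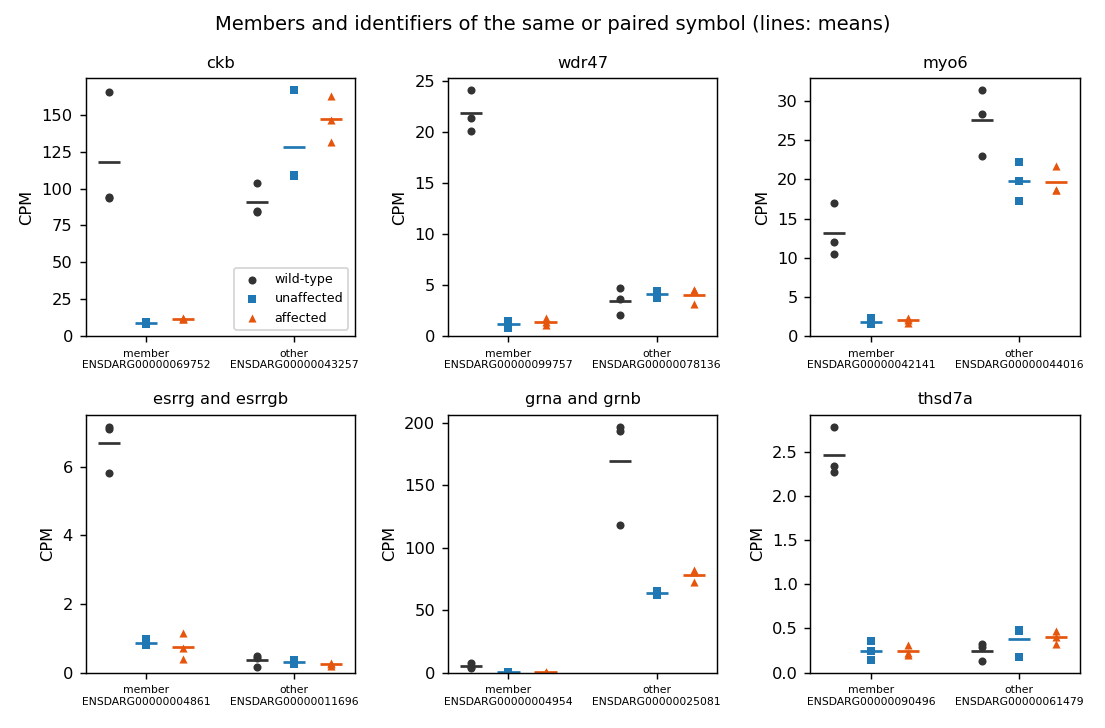
CPM of 6 lost genes (left in each panel) and of the identifier with the same or the paired symbol (right) in the 3 groups, with points for libraries and lines for group means on linear axes that start at 0. The other *ckb* identifier lies higher in affected embryos (131.9 to 163.0 CPM) than in wild-type (83.8 to 103.7 CPM), and *grnb* lies lower in both mutant groups.

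Position was taken from the order of genes in the RefSeq annotation of another assembly, GRCz12tu, from which no coordinates are given. Of the 46 genes, 16 could be placed by symbol and 30 could not, among them most with clone-based names. The placed genes lay on 12 of 25 chromosomes. None of the 16 lay on the chromosome of *mlxip*, which holds 5.99% of all placed genes tested, and no pair of them had 10 or fewer tested genes in between. With so few placed genes, a count of 0 on that chromosome is little below its share of all genes. The position of the other 30 was not analysed here.

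The genes next to *mlxip* were then examined. Of the 10 tested genes on each side, none was lower in both mutant groups (edgeR, adjusted p under 0.05), beside 4.46% of all genes. Against wild-type, 3 were higher and none lower in unaffected embryos, beside 4.65% and 4.95% of all genes. In affected embryos 5 were higher and 3 lower, beside 15.4% and 15.0% of all genes. Of the neighbours, 3 were higher in both groups, beside 4.28% of all genes. *eif4e1b* (ENSDARG00000014565), a cap-binding protein of the oocyte, was higher by 0.91 (SE 0.19; adjusted p = 0.0135 in edgeR) in unaffected and by 1.15 (SE 0.19; adjusted p = 0.00168) in affected embryos, as log2 values. In unaffected embryos it no longer passed when unaffected replicate 2 was left out (adjusted p = 0.0508 in edgeR). The uncharacterised zgc:175280 (ENSDARG00000099111) was higher by 3.14 (SE 0.46, edgeR adjusted p = 0.00257) and 3.56 (SE 0.45, adjusted p = 4.92e-04). *mtif3* (ENSDARG00000039649), a mitochondrial translation initiation factor, was higher by 0.72 and 0.64 (edgeR adjusted p = 0.0397 and 0.0272), and the first of these calls held in 6 of 16 alternatives only.

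The surroundings of the lost genes themselves were examined in the same way, with 5 tested genes on each side. Of the 160 neighbours of the 16 placed genes, 8 (5.00%) were lower in both mutant groups, close to the 4.46% of all genes, and 17 (10.6%) were higher in both, beside 4.28%. Of those 17, 5 lay around *angptl7* alone. These were *adam9*, *fhip2b*, *pimr188*, *sult1st1* and *acot7*, with log2 fold changes against wild-type from 0.73 to 3.27 in unaffected and from 1.17 to 2.79 in affected embryos (edgeR, highest adjusted p = 0.0255). Near *gc2*, *arhgap36* was lower in both groups, at -0.71 and -0.93 (edgeR adjusted p = 0.0368 and 0.00457), and so was *nhsl2*, at -1.58 and -3.04 (edgeR adjusted p = 0.0247 and 6.94e-04). Single neighbours moved strongly elsewhere, such as *tbx20* near *kcnj21*, higher by 4.36 and 4.01 (edgeR adjusted p = 4.05e-04 and 3.25e-04), and *adra2da* near *f8*, at -2.18 and -2.85 (edgeR adjusted p = 0.00529 and 7.71e-04). These neighbours are named after their values were seen.

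Known targets of the Mondo factors were also read from this fit. A hand-written list held arrestin-domain genes and genes of glucose uptake, glycolysis, the pentose phosphate pathway, lipogenesis, fructose and glycerol use and their regulators. It matched 63 identifiers, *txnip* apart, and none of them met the rule of the lost genes. Only 0.378% of the genes that reached the wild-type level met it, so nothing is read from that count. The *txnip* identifiers did meet the rule and had been left out by name. Of 54 list identifiers tested, 2 were higher and 3 lower in unaffected embryos (edgeR), beside 4.65% and 4.95% of all genes. In affected embryos 12 were higher and 7 lower, beside 15.4% and 15.0%. The median log2 fold changes were 0.00 and 0.17, where those of all genes were -0.01 and -0.02. The counts lay near or below the share of all genes, in either direction, except for those higher in affected embryos. Of the 5 arrestin-domain identifiers, listed as direct targets, 2 were higher in affected embryos and 0 were lower in either mutant group.

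Among the list genes that were lower in both groups were a *klf11* identifier and *ppp1r3b*. *klf11* (ENSDARG00000013794), a Krüppel-like transcription factor, had 5.62 ± 1.44, 1.64 ± 0.63 and 1.95 ± 0.60 CPM in wild-type, unaffected and affected embryos (SD, n = 3), with log2 fold changes of -1.76 and -1.46 (SE 0.33 each; adjusted p = 0.00959 and 0.00799 in edgeR). *ppp1r3b* (ENSDARG00000044691), which directs protein phosphatase to glycogen, had 142 ± 7.60, 27.5 ± 2.59 and 44.8 ± 3.06 CPM, at -2.36 and -1.60 (edgeR adjusted p = 2.78e-06 and 1.72e-05). It also differed between the mutant groups, by 0.76 (SE 0.10, edgeR adjusted p = 0.00965). All 4 of these calls against wild-type held in every alternative run. A further *klf11* identifier on the list (ENSDARG00000030844) passed in neither comparison. It was more abundant, with means of 8.32, 4.48 and 7.37 CPM in wild-type, unaffected and affected embryos. Its log2 fold change from wild-type was -0.88 in unaffected embryos (adjusted p = 0.0988 in edgeR) and -0.11 in affected embryos (adjusted p = 0.805). The left-out *txnip* identifier ENSDARG00000036107 had 138, 133 and 167 CPM in wild-type and 1.35 to 2.47 CPM in the mutant libraries.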

How the data were processed

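The authors deposited raw counts of exonic read pairs, 1 value per gene and library. They mapped paired-end reads of ribosome-depleted, strand-specific libraries with STAR to the GRCz11 assembly and assigned uniquely mapped pairs to Ensembl genes with SAMtools (the submitters' processing notes give STAR 2.4.0i and bcl2fastq 2.17.1.14; the labels name polyA RNA). No source says if the strand was used in counting, which leaves overlapping and antisense genes uncertain. Pairs that fit near-identical copies were lost. Depth was 27567897 to 39299268 counts per library.

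From these counts, CPM was computed over the library total, and the rule was applied to it. Genes were filtered with filterByExpr by group and scaled by TMM, and the 9 libraries were fitted together by quasi-likelihood, with group as the only term (R 4.3.3, edgeR 4.0.16, limma 3.58.1; two-sided, Benjamini-Hochberg over 16962 genes, threshold 0.05). DESeq2 1.42.0 was an alternative. Libraries of a group differed well beyond sampling noise (chi-square per degree of freedom 9.06 to 67.7).

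The pairing by replicate number was checked as the correlation of deviations from the group mean between libraries with the same number. It was 0.169, 0.236 and 0.462 for affected with unaffected libraries and 0.123, 0.141 and 0.268 for unaffected with wild-type libraries. For affected with wild-type libraries it was 0.0805, 0.113 and 0.260. The same correlation was not computed for libraries with unlike numbers, and no cut-off is given. These values therefore do not settle whether the numbers pair the libraries. The main fit therefore has no such term, and a fit with the number as a block over all 9 libraries was run as an alternative.

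The genes, lists and tests were chosen with earlier results of these data known. With over 40 symbols in the set, the 30 of the highest wild-type mean are named, and library values are given for the top 12 and for enzymes, receptors and transcription factors; others are named where the text says why. Symbols, found for 28986 of 32055 identifiers, are printed in lower case. Only 17189 identifiers could be placed in gene order. Searches of promoters for response elements and of proteins for closest relatives were planned and not run, since such sequences were not used here. A gene that met the rule for named genes is not reported here.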

Additional observations from a re-analysis of the deposited data

How the results depend on the processing

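The rule gave 123 genes when the mutants were allowed up to 50% of the lowest wild-type level and 19 when allowed 12.5%. It gave 35 with a wild-type floor of 2 CPM and 46 with TMM-scaled CPM, of which 45 were shared with the set. Leaving out libraries one at a time gave 46 to 72 genes. Between affected and unaffected embryos, 507 of all genes passed. The count was 1205 with DESeq2, 1399 with the replicate block, and 42 to 697 when libraries were left out. Among the lost genes, 0 passed, 2 with DESeq2 (*angptl7* and *myo15b*), 1 with the replicate block (*angptl7*) and 0 to 1 when libraries were left out. Target genes higher in unaffected embryos numbered 2, but 5 with DESeq2, 4 without a filter, 1 with at least 10 counts in every library, 7 with the replicate block, 0 with only the 6 libraries compared and 0 to 6 when libraries were left out. The other list counts, when libraries were left out, were 3 to 5 lower in unaffected embryos. In affected embryos they were 5 to 9 lower and 7 to 13 higher. Neighbours of *mlxip* higher in unaffected embryos were 1 to 3 when libraries were left out and 5 with 25 genes on each side. In affected embryos 1 to 4 were lower when libraries were left out, 1 without a filter and 7 with 25 genes on each side, and 2 to 5 were higher, 3 with at least 10 counts in every library and 15 with 25 genes on each side. The causes were not tested. The replicate block changed the call of *angptl7* among the lost genes and of the *myo6* partner in unaffected embryos (edgeR adjusted p lowest at 0.00779). Over all alternatives, 35 single-gene values lost and 8 gained their call, and 0 reversed. Members with few counts in the mutants limit every comparison between mutant groups.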
